A study of Mus musculus with 20 samples.

Results

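The genes described here handle iron in the liver or set the level of hepcidin, the hormone that controls iron in the body. They are the 10 genes Hamp, Hamp2, Bmp6, Tfr2, Tfrc, Trf, Fth1, Ftl1, Slc40a1 and Cp, chosen by name from the 32400 Ensembl genes of the deposited table. All 10 passed the filter on low counts, as did 13667 genes in all. Liver messenger RNA was sequenced in 20 bulk libraries of C57BL/6NTac mice in 3 groups. The HFHF Flcn gRNA group (n = 8) ate a high-fat, high-fructose (HFHF) diet and received adeno-associated virus of serotype AAV8 with a guide RNA (gRNA) against Flcn, the gene of folliculin. The HFHF control group (n = 7) ate the same diet and received vehicle, phosphate-buffered saline (PBS). The chow control group (n = 5) stayed on standard chow and was untreated. The labels give no age or sex, name no nuclease for the guide and no virus with a control guide. Guide and virus therefore cannot be told apart, and neither can diet and vehicle injection. They do not state that each library came from a separate mouse, so p-values measure the spread between these libraries.

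Hepatocytes make hepcidin and release it into the blood, where it binds ferroportin, the only known cellular iron exporter, and causes its breakdown. Iron raises hepcidin through BMP6 from sinusoidal endothelial cells, which signals through BMP receptors and SMAD proteins in hepatocytes, and inflammation raises it through IL-6 and STAT3. Within cells, iron regulatory proteins bind hairpins in the messenger RNA of ferritin, ferroportin and transferrin receptor 1 when iron is scarce.

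Total estimated counts were 13974379 to 19586576 in HFHF Flcn gRNA libraries, 15244760 to 18194089 in HFHF control libraries and 14131976 to 16285324 in chow control libraries. Levels are CPM, counts divided by the scaled library size, and fold changes are log2 values with their standard error (SE) from edgeR's quasi-likelihood test with Benjamini-Hochberg adjustment over all genes. Flcn, the targeted gene, averaged 17.8 ± 2.4 CPM with the gRNA, 20.7 ± 2.98 CPM in HFHF control and 22.2 ± 6.03 CPM in chow control libraries (SD). The gRNA difference from HFHF control did not pass the threshold (log2 fold change -0.22, SE 0.12, adjusted p = 0.14). Against chow control it was lower by a value just past the threshold (-0.32, SE 0.13, adjusted p = 0.05 after rounding up), and that call was lost in 22 of 26 alternatives, with -0.12 (adjusted p = 0.42) without chow control replicate 1. A count per gene does not read a change in sequence. Hepatocyte genes were abundant in every group. Alb, the gene of albumin, averaged 45179 CPM with the gRNA, 39901 CPM in HFHF control and 59814 CPM in chow control libraries.

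HFHF control replicate 2 stood apart for the iron genes. Its Hamp level was 8.79 CPM, against 83.9 to 199 CPM in the other 6 HFHF control libraries, and its Tfrc level was 130.4 CPM, against 32.0 to 50.9 CPM. For Fth1 and Ftl1 it was the second lowest of the 7 HFHF control libraries, and for Tfr2 and Bmp6 it lay in the middle. For Hamp2, Slc40a1, Trf and Cp it lay at the end of the 7 but nearer to the next one. It was lowest for Hamp2 (1.89 CPM, next 3.89 CPM) and Slc40a1 (69.3 CPM, next 77.5 CPM). It was highest for Trf (18250.5 CPM, next 17093 CPM), and its Cp level nearly equalled the next lowest (1643 and 1644 CPM). Among targets of BMP signalling it was the lowest of the 7 for Id2 (80.0 CPM), Id3 (14.8 CPM), Smad7 (6.1 CPM) and Atoh8 (6.41 CPM), and the second lowest for Id1. It was the second highest for Smad6 (3.78 CPM) and the third highest for Bambi (2.2 CPM), the other targets examined. Its globin genes lay near the upper end of the group without standing apart, with Hbb-bs at 319.9 CPM against 108 to 337 CPM in the others. HFHF Flcn gRNA replicate 8 carries a different second number in its title from the other 19 libraries. It had the highest Hamp2, Fth1 and Ftl1 and the lowest Trf and Tfr2 of its group. Flcn, the targeted gene, was also highest of the group in this library, above the HFHF control mean of 20.7 CPM. Without this library the Flcn difference from HFHF control was -0.28 and still did not pass the threshold (adjusted p = 0.0712). Without both libraries, 25 of the 30 fold changes of iron genes kept direction and call, 1 call was lost (Bmp6 with the gRNA against chow), 3 were gained (Hamp with the gRNA against both other groups and Tfr2 with the gRNA against HFHF control) and 1 uncalled value changed sign (Hamp on the diet). Of 63 fold changes of list genes, 3 lost the call (Fdxr, Smad6 and Urod, all with the gRNA against HFHF control).

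With the gRNA, relative to HFHF control, ferroportin (Slc40a1) and ferritin light chain (Ftl1) rose, and ceruloplasmin (Cp) and transferrin (Trf) fell. Between HFHF control and chow livers, both ferritin chains and Cp were higher and Tfr2 and Bmp6 lower on the diet. Hepcidin itself averaged higher with the gRNA but varied widely between libraries and did not pass the threshold. In counts, the gRNA contrast called 2 of the 10 genes higher and 2 lower, while 38.6% of all genes tested were called in that contrast. The diet contrast called 3 higher and 2 lower, against 57.0% of all genes called. The contrast of HFHF Flcn gRNA with chow called 3 higher (Slc40a1, Ftl1, Fth1) and 2 lower (Tfr2, Bmp6), against 42.6% of all genes called. By direction, 19.6% of all genes were called higher and 19.0% lower in the gRNA contrast, and 28.1% and 28.9% in the diet contrast. Counts of list and marker genes given below stand beside these same shares. The iron genes were called at shares near those of all genes. Their median log2 fold changes were 0.18, 0.26 and 0.29 in the 3 contrasts in that order, beside 0.01, -0.01 and 0.0 over all genes. Any 2 of the contrasts share a group of libraries, so their fold changes are not independent of each other. Levels in bulk liver do not tell fewer cells of a type from less RNA per cell.

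**Figure D1:**
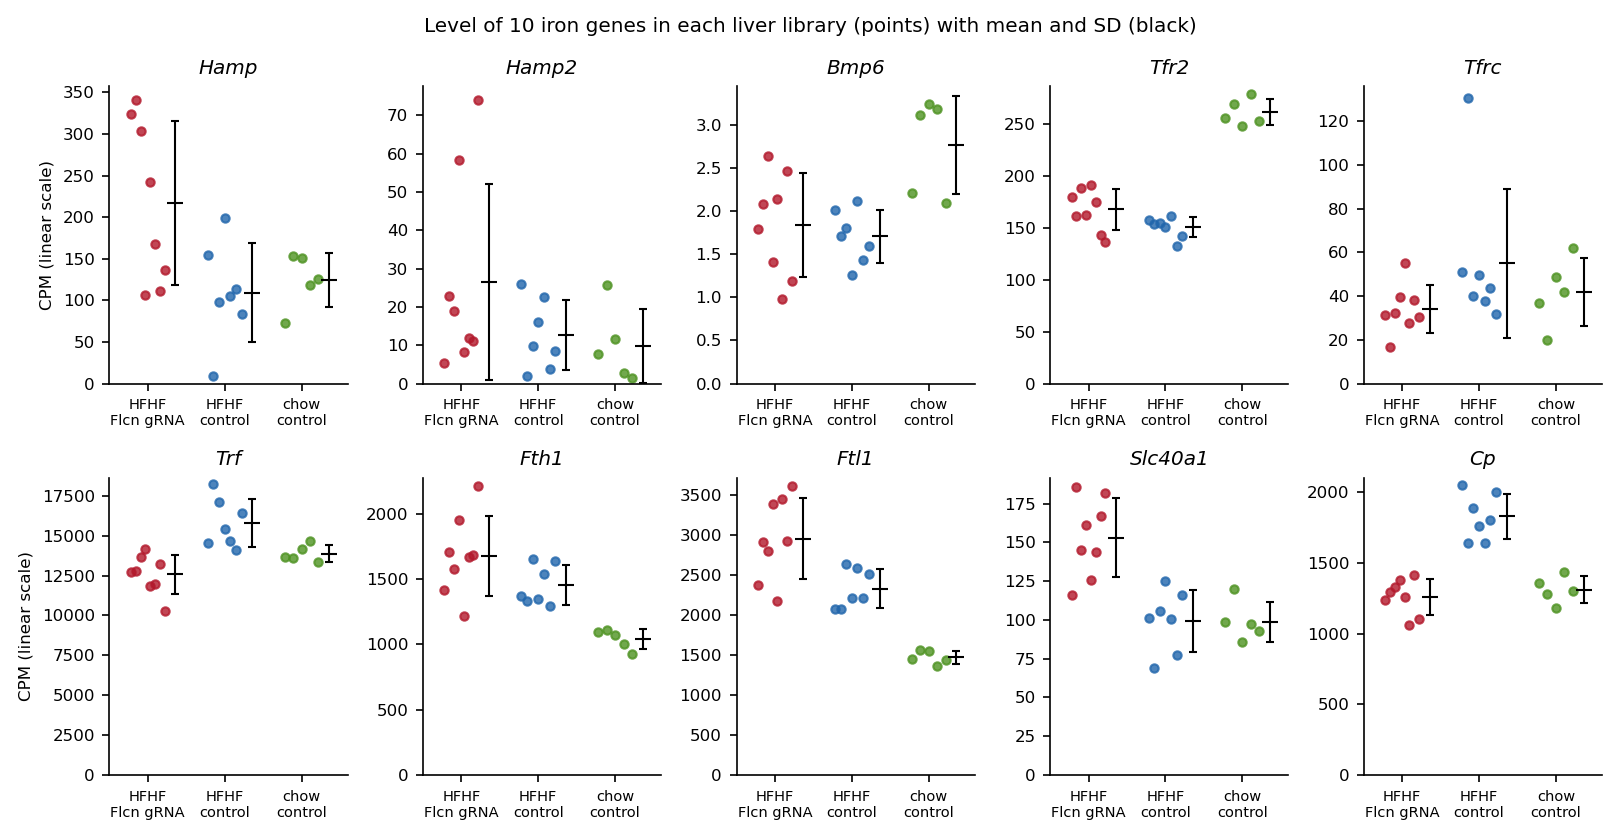
Level in CPM (linear axis from 0) of each iron gene in every library, with HFHF Flcn gRNA left, HFHF control in the middle and chow control right. Black bars are the mean and SD of a group. Cp in the 8 gRNA libraries (1059 to 1416 CPM) sits below all 7 HFHF control libraries, and Tfr2 in both HFHF groups sits below all 5 chow libraries.

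The levels of the genes spanned more than 3 orders of magnitude when given per kilobase of annotated exon. In HFHF Flcn gRNA libraries Trf was highest, at 3790.4 ± 369 CPM per kilobase, followed by Ftl1 at 2207 ± 381, Hamp at 528 ± 239 and Fth1 at 484 ± 87.9 CPM per kilobase (SD, n = 8). Hamp and Fth1 did not differ beyond their spread on this measure. Cp followed at 132 ± 13.1, then Hamp2 at 45.2 ± 43.8, Tfr2 at 38.6 ± 4.61, Slc40a1 at 17.1 ± 2.81 and Tfrc at 5.49 ± 1.78 CPM per kilobase. Hamp2 and Tfr2 lay within their spread of each other. Bmp6 was lowest, at 0.472 ± 0.154 CPM per kilobase. The length used joins all annotated exons of a gene, 410 bases for Hamp with 1 transcript and 3469 bases for Fth1 with 9 transcripts. Which transcripts were present was not tested, so the order of genes, Hamp and Fth1 among them, depends on this choice of length. Read assignment also limits some of these levels. Of the 51-base stretches of the Ftl1 transcripts, 58.2% also occur in a transcript of another gene, mostly ferritin pseudogenes such as Ftl1-ps1. For Trf the share was 59.2%, mostly from the overlapping gene model Gm20425, which the deposited table does not list. For Hamp2 it was 18.8% and for Hamp 15.8%, all of Hamp's from Hamp2. Estimated counts of Hamp, Hamp2 and Ftl1 were not whole in 100% of libraries, so reads were divided between genes, and the levels of these 3 genes and of Trf are uncertain. Tfrc and Slc40a1 shared no such stretch.

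Hamp encodes hepcidin, and Hamp2 is its mouse paralog, whose product is not known to act on ferroportin as hepcidin does. Both lie on the minus strand of chromosome 7 (GRCm38), Hamp at chr7:30942368-30944032 and Hamp2 at chr7:30922372-30924681. The RefSeq sequences of the 250 bases before each start site (build GRCm38.p6, minus strand) are shown because the pair is nearly identical here. Hamp covers chr7:30944030-30944279 and Hamp2 chr7:30924182-30924431. Capitals mark 2 motifs known from the human HAMP promoter, the core GGCGCC of the BMP-responsive element and the STAT site TTCNNNGAA, both searched on both strands.
Hamp: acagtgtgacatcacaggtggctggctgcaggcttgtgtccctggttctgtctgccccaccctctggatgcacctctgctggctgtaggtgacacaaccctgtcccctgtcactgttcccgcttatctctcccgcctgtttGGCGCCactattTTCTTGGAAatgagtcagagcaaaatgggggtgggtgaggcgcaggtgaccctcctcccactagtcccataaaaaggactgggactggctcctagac
Hamp2: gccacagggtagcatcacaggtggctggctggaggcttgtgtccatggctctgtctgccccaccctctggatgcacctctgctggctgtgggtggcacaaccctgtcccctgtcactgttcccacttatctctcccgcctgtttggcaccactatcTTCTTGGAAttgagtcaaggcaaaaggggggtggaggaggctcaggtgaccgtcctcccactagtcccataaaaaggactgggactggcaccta

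Over the aligned part of the full windows, which run 50 bases past the start site, 276 of 297 bases were identical (92.9%), with 21 substitutions and no internal gap. The Hamp window held GGCGCC from base -109 and TTCTTGGAA from base -97, counted from the start site. Hamp2 held the STAT match from base -94 and no GGCGCC. One substitution, G145A, with positions counted from 1 at the 5′ end of the Hamp window, falls within the GGCGCC match of Hamp. Among 32851 RefSeq promoter windows of the same length, 11.87% held GGCGCC and 8.3% held TTCNNNGAA. The motifs do not overlap in either window, and a match describes the letters only.

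Hamp had 106, 205 and 341 CPM (lowest, median and highest) with the gRNA and 8.79, 105 and 199 CPM in HFHF control libraries. The 5 chow control libraries had 72.3, 153, 151, 119 and 126 CPM. The gRNA libraries were spread over a 3.21-fold range, 4 of the 8 lay above every HFHF control library, and all 8 lay above the HFHF control median, but the groups overlapped. The gRNA difference from HFHF control was a log2 fold change of 0.99 (SE 0.43, 95% interval 0.08 to 1.9), with an unadjusted p of 0.0345 and an adjusted p of 0.0801. Without HFHF control replicate 2 it was 0.78 (adjusted p = 0.0531), and without both that library and HFHF Flcn gRNA replicate 8 it was 0.85 and passed the threshold (adjusted p = 0.0412). It also passed without HFHF control replicate 4, at 1.2 (adjusted p = 0.0439). Over all alternatives the adjusted p ran from 0.0412 to 0.145. Hamp in HFHF control relative to chow livers gave a log2 fold change of -0.19 (SE 0.48, 95% interval -1.2 to 0.82, adjusted p = 0.761), and without replicate 2 it was 0.02 (adjusted p = 0.965). HFHF Flcn gRNA against chow gave 0.8 (SE 0.48, adjusted p = 0.191). Without HFHF control replicate 2 and HFHF Flcn gRNA replicate 8, a pair chosen after seeing the data, it was 0.9 (adjusted p = 0.0367).

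Hamp2 had 5.4, 15.4 and 74.0 CPM with the gRNA and 1.89, 9.84 and 26.0 CPM in HFHF control libraries (lowest, median and highest). Chow control libraries had 7.8, 25.6, 11.7, 2.67 and 1.56 CPM. The highest library of each group was 13.7 to 16.5 times its lowest, the widest spread of the 10 genes in the gRNA and chow groups. Between HFHF Flcn gRNA and HFHF control the difference was 1.05 (SE 0.66, adjusted p = 0.227). It was 0.62 (adjusted p = 0.478) without HFHF Flcn gRNA replicate 8 and 0.43 (adjusted p = 0.63) without that library and HFHF control replicate 2. Hamp2 came to 1.67, 6.91 and 55.1% of the Hamp level with the gRNA (lowest, median and highest library), 3.43, 10.1 and 21.7% in HFHF control and 1.24, 7.75 and 16.8% in chow control. The gRNA libraries with most Hamp2, replicates 8 and 4 at 74.0 and 58.4 CPM, were among those with least Hamp, at 137 and 106 CPM. The other groups did not show this. Chow control replicate 2 had the most of both genes in its group (25.6 and 153 CPM). HFHF control replicate 1 had the most Hamp2 (26.0 CPM) and the second most Hamp (155 CPM) of its group, and replicate 2 the least of both.

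**Figure D2:**
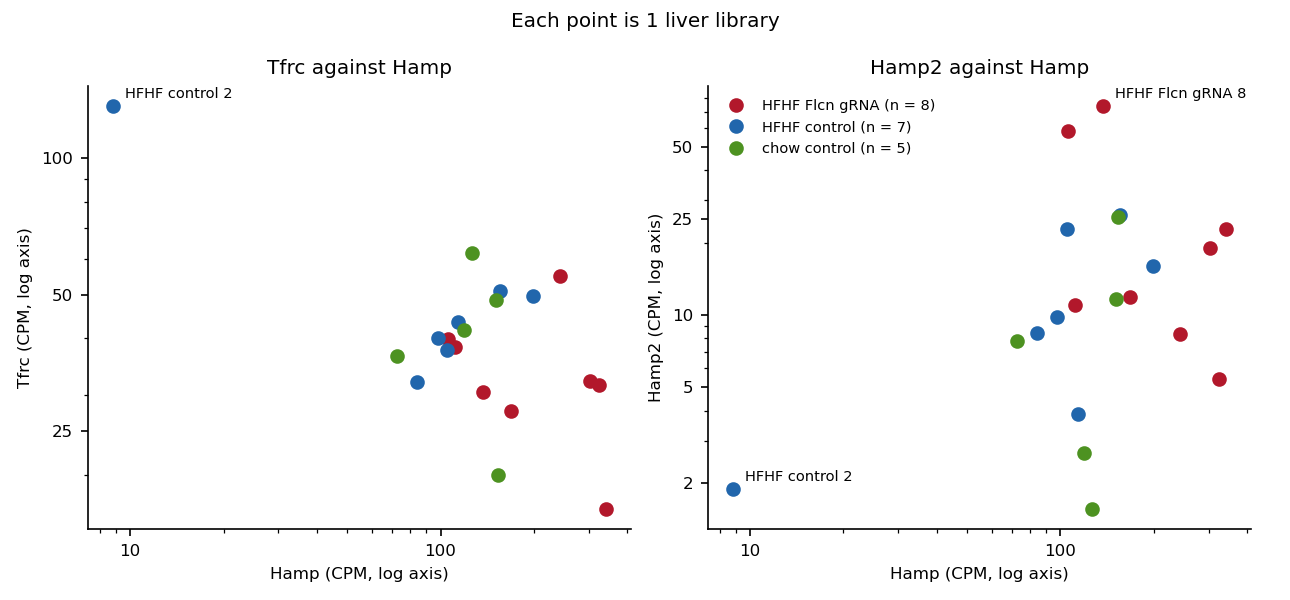
Tfrc (left) and Hamp2 (right) against Hamp in each of the 20 libraries, in CPM on log axes. HFHF control replicate 2 lies alone at 8.79 CPM of Hamp, with the highest Tfrc level (130.4 CPM). The gRNA libraries with the most Hamp2 did not have the most Hamp, whereas chow control replicate 2 had the most of both in its group.

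The 3 genes whose pattern over the 20 libraries was most like that of Hamp were Mfsd4b5, Lrit2 and Ogn, by the root mean square difference of centred log2 CPM. The difference was 0.81 to 0.83, against a spread of 1.08 for Hamp itself, so even these followed Hamp only loosely.

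Bmp6 encodes the ligand that raises hepcidin when liver iron is high. It had 0.982, 1.94 and 2.64 CPM with the gRNA and 1.26, 1.71 and 2.12 CPM in HFHF control libraries (lowest, median and highest). Chow control libraries had 2.21, 3.12, 3.25, 3.19 and 2.1 CPM. These levels rest on 17 to 47 counts per library. Bmp6 fell in HFHF control relative to chow livers, by 0.7 on the log2 scale (SE 0.22, adjusted p = 0.00857), and 6 of the 7 HFHF control libraries lay below every chow library. It was also lower with the gRNA than in chow livers (-0.59, SE 0.21, adjusted p = 0.0287), but that call was lost in 8 of 26 alternatives. Among these were the fits without HFHF Flcn gRNA replicate 4 (-0.54, adjusted p = 0.0524) or 8 (-0.5, adjusted p = 0.0625) and without chow control replicate 2 (-0.52, adjusted p = 0.0844), 3 (-0.5, adjusted p = 0.0912) or 4 (-0.51, adjusted p = 0.0837). HFHF Flcn gRNA and HFHF control livers differed by 0.11 (SE 0.2, adjusted p = 0.691). The 3′ end of Bmp6 overlaps that of Txndc5 on the other strand, and 4.5% of its 51-base stretches are shared with it. Txndc5 stood at 107 to 146 CPM with the gRNA, 114 to 147 CPM in HFHF control and 121 to 172 CPM in chow control libraries, far above Bmp6. Estimated counts of Bmp6 were whole in all 20 libraries, so no sign of reads divided between these genes was seen. Strand use in counting is not given, so the assignment of reads in the overlap, and with it the Bmp6 values, stays uncertain.

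Markers of sinusoidal endothelial cells, the known source of BMP6, were called in the diet contrast at a share near the 57.0% of all genes. On the diet, in HFHF control relative to chow livers, 5 of 10 fell and 1 rose, with a median log2 fold change of -0.44. Their summed level was 181 to 278 CPM in HFHF control and 228 to 277 CPM in chow control libraries, and none of the markers was at 0 throughout a group. Between HFHF Flcn gRNA and HFHF control livers 3 of 10 rose and none fell, among them Stab2, a scavenger receptor, at 70.0 against 40.1 CPM. Their part in the Bmp6 result was not tested.

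Tfr2 encodes transferrin receptor 2, which senses iron-loaded transferrin on hepatocytes and is needed for full hepcidin expression. It had 137, 169 and 192 CPM with the gRNA, 133, 154 and 162 CPM in HFHF control, and 256, 270.2, 249, 279.8 and 253 CPM in chow control libraries. Both HFHF groups lay wholly below the chow group. Tfr2 fell in HFHF control relative to chow livers by 0.79 on the log2 scale (SE 0.08, adjusted p = 2.65e-08). It was also lower with the gRNA than in chow livers, with a log2 fold change of -0.64 (SE 0.08, adjusted p = 8.31e-07). The groups of 37.0% of all genes did not overlap in the diet contrast, and those of 18.0% did not overlap between HFHF Flcn gRNA and chow livers. Relative to HFHF control, the gRNA difference was 0.15 (SE 0.07, adjusted p = 0.0911), with 6 of 8 libraries above all HFHF control libraries. It passed the threshold, at 0.18, without HFHF Flcn gRNA replicate 7 (adjusted p = 0.0404) or replicate 8 (adjusted p = 0.0259).

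Tfrc encodes transferrin receptor 1, which takes up transferrin-bound iron and whose messenger RNA is stabilised by iron regulatory proteins when iron is low. It had 16.8, 31.8 and 55.0 CPM with the gRNA and 32.0, 43.5 and 130.4 CPM in HFHF control libraries, while chow control libraries had 36.6, 20, 48.7, 41.8 and 61.8 CPM. All 3 groups overlapped. The gRNA difference from HFHF control was -0.69 (SE 0.31, adjusted p = 0.0838). It rested on HFHF control replicate 2: without it the value was -0.32 (adjusted p = 0.314). Without HFHF Flcn gRNA replicate 5 it was -0.83 and passed the threshold (adjusted p = 0.0423). The diet difference, of HFHF control from chow livers, was 0.39 (SE 0.35, adjusted p = 0.351), and 0.02 (adjusted p = 0.952) without replicate 2. The genes most like Tfrc over the 20 libraries were P4ha1, Tuba1c and Egln3, with a root mean square difference of 0.36 to 0.39 against a spread of 0.6 for Tfrc itself.

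Of the hairpins that iron regulatory proteins bind, 4 were found in the Tfrc 3′ untranslated region, and 1 each in the 5′ untranslated regions of Fth1, Ftl1 and Slc40a1. The search took a C, a stem of 5 bases paired with the 5 bases after the loop, and the loop CAGTGN. They are shown because these 4 genes share this element. Each is given 5′ to 3′ as 30 bases of the GENCODE transcript on GRCm38, with the loop in capitals. Slc40a1 lies at chr1:45925464-45925493 (minus), Ftl1 at chr7:45459778-45459807 (minus) and Fth1 at chr19:9982732-9982761 (plus). The Tfrc hairpins lie on the plus strand at chr16:32631219-32631248, chr16:32631598-32631627, chr16:32631663-32631692 and chr16:32631710-32631739, in the order shown.
Slc40a1: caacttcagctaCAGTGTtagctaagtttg
Ftl1: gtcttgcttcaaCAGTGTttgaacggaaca
Fth1: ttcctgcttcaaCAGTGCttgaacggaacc
Tfrc 1: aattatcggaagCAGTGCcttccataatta
Tfrc 2: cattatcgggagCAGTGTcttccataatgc
Tfrc 3: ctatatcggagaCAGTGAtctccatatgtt
Tfrc 4: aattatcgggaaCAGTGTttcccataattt

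The same pattern occurred in the 5′ untranslated regions of 31 of 20899 genes (0.148%) and in the 3′ untranslated regions of 129 of 21685 genes (0.595%). In ferritin and ferroportin the hairpin is known to control translation, which messenger RNA levels do not show.

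Trf encodes transferrin, the iron carrier of blood plasma made by hepatocytes. It had 10271, 12767 and 14188 CPM with the gRNA and 14098, 15435 and 18250.5 CPM in HFHF control libraries, and 13642, 13594, 14180.4, 14657 and 13340.5 CPM in chow control libraries. Of the 8 gRNA libraries 7 lay below all HFHF control libraries. Trf fell with the gRNA relative to HFHF control by 0.33 on the log2 scale (SE 0.08, adjusted p = 0.00219), and by 0.26 without HFHF control replicate 2 and HFHF Flcn gRNA replicate 8 (adjusted p = 0.00701). The diet difference was 0.19 (SE 0.09, adjusted p = 0.0816). It passed the threshold under upper-quartile scaling (0.28, adjusted p = 0.0124), in DESeq2 (0.2, adjusted p = 0.0175) and without any of HFHF Flcn gRNA replicates 1, 3, 5 or 8, HFHF control replicate 5 or chow control replicate 4 (0.22 to 0.24, adjusted p = 0.0185 to 0.049). With the gRNA, relative to chow, Trf differed by -0.14 (SE 0.09, adjusted p = 0.197).

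Fth1 and Ftl1 encode the heavy and light chains of ferritin, the shell that stores iron. Fth1 had 1218, 1674 and 2212 CPM with the gRNA and 1290.2, 1369.8 and 1654 CPM in HFHF control libraries. Chow control libraries had 1091, 1109, 1073, 1004 and 929 CPM. Both HFHF groups lay wholly above the chow group and overlapped each other. Such separation held for 37.0% of all genes in the diet contrast and 18.0% between HFHF Flcn gRNA and chow livers. Fth1 rose in HFHF control relative to chow livers by 0.48 (SE 0.11, adjusted p = 0.00108) and in HFHF Flcn gRNA relative to chow livers by 0.69 (SE 0.11, adjusted p = 4.49e-05). Set against HFHF control, the gRNA difference was 0.21 (SE 0.1, adjusted p = 0.106). It was 0.13 without HFHF Flcn gRNA replicate 8 (adjusted p = 0.266), and 0.26 and past the threshold without replicate 5 (adjusted p = 0.0331).

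Ftl1 had 2178, 2920.2 and 3609 CPM with the gRNA and 2073, 2213 and 2633 CPM in HFHF control libraries, and 1446, 1559, 1547, 1369 and 1439 CPM in chow control libraries. With the gRNA 6 of 8 libraries lay above all HFHF control libraries. Ftl1 rose in all 3 contrasts: by 0.34 with the gRNA relative to HFHF control (SE 0.1, adjusted p = 0.00799), by 0.66 in HFHF control relative to chow livers (SE 0.11, adjusted p = 3.29e-05) and by 1.01 with the gRNA relative to chow (SE 0.11, adjusted p = 3.78e-07). Without HFHF control replicate 2 and HFHF Flcn gRNA replicate 8 the first of these was 0.26 (adjusted p = 0.047). Ftl1 counts came to 163 to 207% of Fth1 counts with the gRNA, 151 to 172% in HFHF control and 132 to 155% in chow control libraries. The pseudogene Ftl1-ps1 was listed at 52.7, 86.3 and 143 CPM with the gRNA, 63.7, 66.8 and 80.5 CPM in HFHF control and 35.8, 40.6 and 54.3 CPM in chow control libraries.

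Slc40a1 encodes ferroportin, the exporter that hepcidin targets, found on Kupffer cells and also on hepatocytes. It had 116, 153 and 186 CPM with the gRNA and 69.3, 101 and 125 CPM in HFHF control libraries. Chow control libraries had 98.7, 119.8, 85.5, 97.2 and 93.0 CPM. With the gRNA 7 of 8 libraries lay above every library of both other groups. Slc40a1 rose 1.55-fold with the gRNA relative to HFHF control, a log2 fold change of 0.63 (SE 0.12, 95% interval 0.38 to 0.88, adjusted p = 0.000314), and 0.63 relative to chow (SE 0.14, adjusted p = 0.000752). Without HFHF control replicate 2 and HFHF Flcn gRNA replicate 8 the first value was 0.51 (adjusted p = 0.00199). HFHF control and chow livers differed by 0.01 (SE 0.14, 95% interval -0.28 to 0.29, adjusted p = 0.974). The genes most like Slc40a1 over the 20 libraries were Bid, Tmem106b and Tm6sf2, with a root mean square difference of 0.16 to 0.17 against a spread of 0.39 for Slc40a1 itself.

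Macrophage markers did not all move as Slc40a1 did. Of 10 Kupffer cell markers 3 rose and 4 fell with the gRNA relative to HFHF control. Those that rose were Clec4f, a lectin of Kupffer cells (63.3 against 39.9 CPM), Timd4, a receptor for dying cells (5.08 against 1.05 CPM), and the scavenger receptor Marco (5.53 against 1.16 CPM). Those that fell were the complement genes C1qa (26.5 against 45.3 CPM), C1qb (32.0 against 59.7 CPM) and C1qc (28.1 against 43.5 CPM) and Adgre1, which encodes the macrophage antigen F4/80 (12.7 against 21.5 CPM). Marco and the 4 that fell were named after their values were seen. The summed Kupffer cell markers were 215, 304 and 467 CPM with the gRNA, 278, 415 and 526 CPM in HFHF control and 129, 199 and 251 CPM in chow control libraries, and none was at 0 throughout a group. Of 9 markers of monocyte-derived macrophages 7 fell with the gRNA, and their sum was 85.2 to 216 CPM, against 152 to 372 CPM in HFHF control and 29.0 to 46.6 CPM in chow control libraries. Their part in the Slc40a1 and ferritin results was not tested.

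Cp encodes ceruloplasmin, a copper protein of plasma that oxidises iron as it leaves cells. It had 1059, 1277 and 1416 CPM with the gRNA and 1643, 1806 and 2054 CPM in HFHF control libraries, and 1359, 1279, 1178, 1437 and 1299 CPM in chow control libraries. HFHF control lay wholly above both other groups, which overlapped. Cp fell with the gRNA relative to HFHF control by 0.54 on the log2 scale (SE 0.07, adjusted p = 7.57e-06) and rose in HFHF control relative to chow livers by 0.48 (SE 0.09, adjusted p = 5.6e-05). Without HFHF control replicate 2 and HFHF Flcn gRNA replicate 8 these values were -0.55 (adjusted p = 1.74e-05) and 0.54 (adjusted p = 1.61e-05). The groups of 11.0% of all genes did not overlap in the gRNA contrast, and those of 37.0% did not overlap in the diet contrast. HFHF Flcn gRNA and chow livers differed by -0.06 (SE 0.08, 95% interval -0.23 to 0.11, adjusted p = 0.598). Both changes use the same HFHF control libraries. Hepatocyte markers summed to 49268 to 82019.6 CPM with the gRNA, 44007 to 65664 CPM in HFHF control and 75045 to 101886 CPM in chow control libraries. Of these 10 markers 3 rose and none fell with the gRNA relative to HFHF control, whereas 9 fell and none rose in HFHF control relative to chow livers. Stellate cell markers went the way of Cp, with 7 of 9 lower with the gRNA relative to HFHF control and 9 of 9 higher in HFHF control relative to chow livers. Their sum was 236 to 339 CPM with the gRNA, 519 to 721 CPM in HFHF control and 186 to 232 CPM in chow control libraries. Their part in the Cp and Trf results was not tested.

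**Figure D3:**
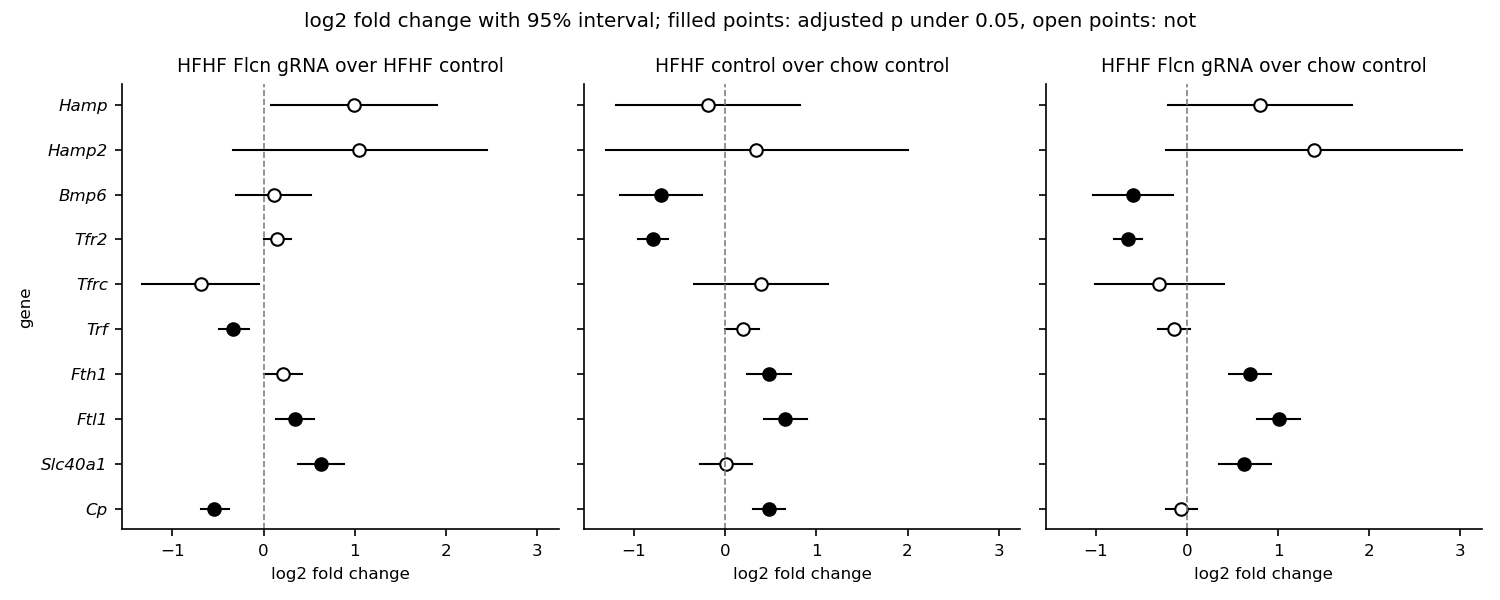
log2 fold change (point) and 95% interval (line) of each iron gene in the 3 contrasts. Filled points passed the adjusted threshold. Slc40a1 was higher in both contrasts of the gRNA group, Cp changed in opposite directions in the first and second contrast, and the intervals of Hamp and Hamp2 were the widest.

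The genes upstream of hepcidin were examined as lists. No list was tested as a set, and 38.6% of all genes were called in the gRNA contrast and 57.0% in the diet contrast. Of 13 receptors, co-receptors and SMAD proteins that control hepcidin, 3 rose and none fell with the gRNA relative to HFHF control (median log2 fold change 0.08). They were Tmprss6, the protease that cleaves the co-receptor hemojuvelin and so restrains hepcidin, at 279 against 215 CPM (0.38, SE 0.06, adjusted p = 8.37e-05), the receptor Bmpr2 (0.21, SE 0.05, adjusted p = 0.00272) and Smad9 (1.0, SE 0.25, adjusted p = 0.00345). In the diet contrast none rose and 10 of 13 fell (median -0.31), among them the receptors Acvr2a (-0.56, SE 0.09, adjusted p = 1.53e-05) and Bmpr2 (-0.3, SE 0.06, adjusted p = 0.00016), Tmprss6 (-0.44, SE 0.07, adjusted p = 2.05e-05) and Smad4 (-0.38, SE 0.07, adjusted p = 0.000145).

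Of 7 target genes of BMP and SMAD signalling, 1 rose and 1 fell with the gRNA relative to HFHF control. Id2, an inhibitor of helix-loop-helix factors, averaged 164 against 104 CPM (0.65, SE 0.15, adjusted p = 0.00179), and the inhibitory Smad6 averaged 2.38 against 3.18 CPM (-0.41, SE 0.15, adjusted p = 0.0329). The Smad6 call was lost in 10 of 26 alternatives. Between HFHF control and chow livers 3 of 7 rose and none fell. Id1 averaged 4.55 against 1.42 CPM (1.69, SE 0.31, adjusted p = 8.43e-05), Id3 23.9 against 14.0 CPM (0.78, SE 0.23, adjusted p = 0.00812) and Smad6 3.18 against 2.2 CPM (0.52, SE 0.18, adjusted p = 0.0146). In the same contrast Bmp6 fell and Hamp did not pass the threshold.

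The list of the IL-6 and STAT3 pathway with acute phase genes moved in both directions. With the gRNA, relative to HFHF control, 4 of 15 rose and 4 fell (median 0.02). Lcn2, which binds siderophores, averaged 23.4 against 149 CPM (-2.67, SE 0.43, adjusted p = 0.00011). The serum amyloid genes Saa1 (67.9 against 191 CPM) and Saa2 (42.8 against 128 CPM) fell as well, while Crp, the gene of C-reactive protein, rose (396 against 230 CPM, 0.78, SE 0.08, adjusted p = 1.24e-07). The diet contrast, HFHF control over chow, had 4 higher and 6 lower. Lcn2 averaged 149 against 5.64 CPM (4.72, SE 0.6, adjusted p = 3.54e-06), and Saa1 (191 against 57.0 CPM), Saa2 (128 against 25.3 CPM) and Saa3 (9.8 against 3.2 CPM) rose as well. Crp averaged 230 against 407 CPM, and the fibrinogen chains Fga, Fgb and Fgg fell by 0.92 to 0.94 on the log2 scale (SE 0.11 each).

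Among genes of iron import, reduction, chaperoning and ferritin turnover, 14 of 16 were tested. With the gRNA, relative to HFHF control, 4 rose and 5 fell. The metalloreductases Steap4 (94.2 against 225 CPM, -1.26, SE 0.15, adjusted p = 1.74e-06) and Steap2 (5.64 against 11.8 CPM, -1.06, SE 0.18, adjusted p = 7.82e-05) fell. Slc39a8, a metal importer (0.58, SE 0.09, adjusted p = 2.08e-05), and Mcoln1, a cation channel of lysosomes (33.1 against 19.8 CPM, 0.74, SE 0.1, adjusted p = 3.56e-06), rose. Between HFHF control and chow livers 3 rose and 4 fell. Steap4 rose by 1.21 (SE 0.17, adjusted p = 5.42e-06) and Heph, a ferroxidase, by 1.07 (SE 0.28, adjusted p = 0.00271). The importers Slc39a8 (-0.53, SE 0.1, adjusted p = 9.36e-05) and Slc39a14 (-0.36, SE 0.09, adjusted p = 0.00228) fell.

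The genes of both iron regulatory proteins moved together. Ireb2 with the gRNA, relative to HFHF control, averaged 104 against 75.0 CPM (0.46, SE 0.08, adjusted p = 7e-05) and Aco1 176 against 146 CPM (0.26, SE 0.07, adjusted p = 0.00509). On the diet, in HFHF control relative to chow livers, Ireb2 averaged 75.0 against 129 CPM (-0.78, SE 0.09, adjusted p = 1.44e-07) and Aco1 146 against 236 CPM (-0.69, SE 0.08, adjusted p = 2.05e-07). Fbxl5, whose product degrades IRP2 when iron is ample, was the other gene of the list and was called in neither contrast (0.08 with the gRNA, adjusted p = 0.274, and 0.06 for the diet, adjusted p = 0.419).

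Heme and iron-sulfur clusters take up much of the iron used by the liver. Of 8 heme synthesis genes 3 rose and none fell with the gRNA relative to HFHF control, with Fech, which inserts iron into heme, at 154 against 119.8 CPM (0.36, SE 0.07, adjusted p = 0.000285). The others were Urod (0.19, SE 0.06, adjusted p = 0.0124) and Cpox (0.22, SE 0.08, adjusted p = 0.0363), whose call was lost in 10 of 26 alternatives. On the diet, relative to chow, 4 fell and none rose, with the smallest p for Cpox (-0.8, SE 0.09, adjusted p = 1.69e-07). Of 15 iron-sulfur cluster genes 5 rose and none fell with the gRNA relative to HFHF control (median 0.12), with the chaperone Hspa9 at 513 against 409.6 CPM (0.32, SE 0.05, adjusted p = 2.42e-05). In HFHF control relative to chow livers 4 rose and 3 fell, with the glutaredoxin Glrx5 at 46.5 against 31.0 CPM (0.58, SE 0.1, adjusted p = 2.44e-05). In the gRNA contrast neither the heme synthesis nor the iron-sulfur list was called at more than the 38.6% of all genes.

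For heme scavenging, transport and breakdown, 2 of 11 genes rose and 3 fell with the gRNA relative to HFHF control. Cd163, the macrophage receptor for hemoglobin bound to haptoglobin, averaged 6.79 against 0.754 CPM (3.16, SE 0.36, adjusted p = 1.76e-06), and haptoglobin (Hp) itself averaged 1967 against 3861 CPM (-0.97, SE 0.13, adjusted p = 5.11e-06). In the diet contrast 7 rose and 2 fell. Hmox1, which breaks heme down and frees its iron, averaged 24.3 against 10.2 CPM (1.26, SE 0.13, adjusted p = 4.63e-08), hemopexin (Hpx) 4227 against 2375 CPM (0.83, SE 0.12, adjusted p = 3.84e-06) and Cd163 0.754 against 17.0 CPM (-4.47, SE 0.37, adjusted p = 1.16e-08). In HFHF control libraries Cd163 lay at only 0.107 to 1.31 CPM, so both of its fold changes rest on few counts there. Cd163 moved in the direction of Timd4 in both contrasts. Of the 10 Kupffer cell markers as a whole, however, 5 rose and 2 fell in the diet contrast, and 3 rose and 4 fell with the gRNA.

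NRF2 is a transcription factor known to raise the genes of ferritin, ferroportin and heme oxygenase. Of 8 NRF2 targets outside the iron genes 4 fell and none rose with the gRNA relative to HFHF control (median -0.26), with Srxn1 at 51.6 against 104 CPM (-1.01, SE 0.11, adjusted p = 3.78e-07). In the diet contrast 5 rose and 1 fell (median 0.5), with Srxn1 at 104 against 29.1 CPM (1.84, SE 0.13, adjusted p = 6.59e-10) and Nqo1 at 13.2 against 4.9 CPM (1.42, SE 0.27, adjusted p = 0.000171).

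**Figure D4:**
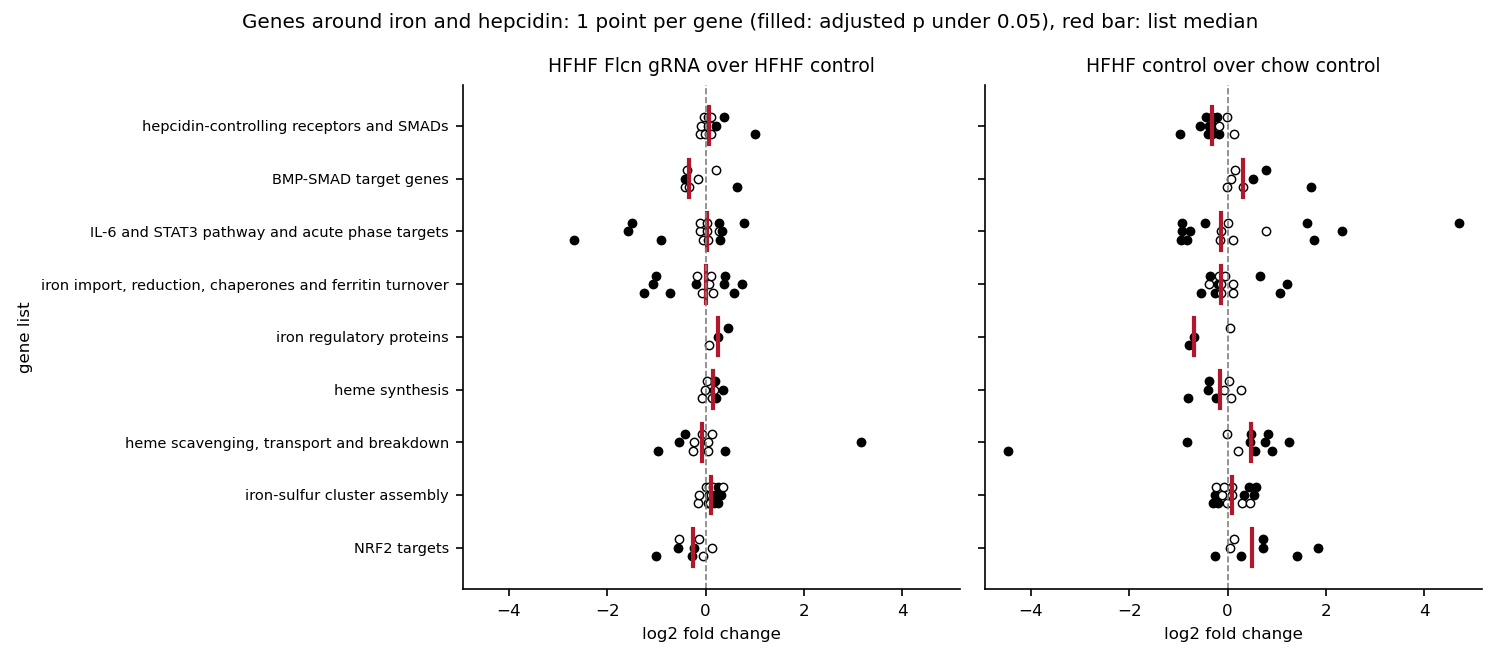
log2 fold change of each tested gene of 9 lists around iron and hepcidin (1 point per gene) with HFHF Flcn gRNA over HFHF control left and HFHF control over chow control right. Filled points passed the adjusted threshold and red bars are list medians. The receptor and SMAD list had 10 of 13 genes lower in the diet contrast, and Cd163 is the point farthest to the right in the left panel.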

How the data were processed

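The deposited table holds estimated counts (expected counts) per gene for 20 libraries, made by the authors from single-end reads of a 51-cycle recipe, per the labels' protocols. The genome build was GRCm38, per the submitters' processing notes. Not given in the sources used here are the aligner, the counter, the annotation, and whether strand and the adapters' molecular identifiers were used. Of values of at least 1, 77.8% were whole. Columns were matched by library name, and 1 column that matched no label was not used. Of 32422 features, 22 construct sequences holding 7.0 counts in all were left out.

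Counts were rounded. Genes were kept with filterByExpr (13667 genes), scaled with TMM, and fitted for all 3 groups at once with edgeR 4.0.16 (R 4.3.3; estimateDisp, robust glmQLFit, glmQLFTest; 17 residual degrees of freedom; no covariates). Adjusted p-values are Benjamini-Hochberg values over all genes, with a threshold of 0.05. The fit was tested on simulated data. Alternatives were upper-quartile scaling, RLE size factors, no low-count filter, DESeq2 1.42.0, only the 2 groups compared, and each library left out in turn. An alternative without HFHF control replicate 2 and HFHF Flcn gRNA replicate 8 together was chosen after seeing the data.

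Gene names, lengths and untranslated regions came from GENCODE on GRCm38 and promoters from RefSeq (GRCm38.p6). RefSeq promoter windows matched 8 of the 10 genes. The members and gene lists were chosen with earlier results of these data known. All 10 genes are named in every contrast, from pathway lists up to 4 called genes of smallest p per contrast, and from marker lists up to 2 defining markers. Named outside this rule were Lcn2, Saa1, Saa2 and Saa3 in the diet contrast, Fbxl5, and the Kupffer cell markers Marco, C1qa, C1qb, C1qc and Adgre1. Fold changes of these genes in those contrasts, and of all marker genes, were not among the 63 list results checked in the alternatives. Replicate numbers follow accession order and pair no libraries.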

Additional observations from a re-analysis of the deposited data

Results flagged for a closer look

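Of 30 combinations of gene and group tested for a library far from the others, 1 stood out, where chance gives about 1 in 20. Tfrc in HFHF control replicate 2 was at 130.4 CPM, and the next highest of the 7 HFHF control libraries was at 50.9 CPM. The same library had the lowest Hamp level of all 20 (8.79 CPM), which did not meet the limit on the linear scale. The reason was not tested.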

How the results depend on the processing

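No paired analysis was possible because the labels carry no replicate numbers. The 3 counts of all genes called stayed within 1.5 times their main value in every alternative run: 4632 to 5381 for HFHF Flcn gRNA against HFHF control (main 5270), 7204 to 7942 for HFHF control against chow control (main 7794) and 5152 to 5921 for HFHF Flcn gRNA against chow control (main 5819). Counts of iron genes called were 4 to 6, 5 to 6 and 4 to 5 in these contrasts, against main counts of 4, 5 and 5. Upper-quartile scaling changed the share of calls that were higher to 37.8% in the gRNA contrast, against 50.7% under the main scaling, and to 60.7% in the diet contrast, against 49.4%, moving the median of all genes to -0.05 and 0.08.

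Of 30 fold changes of iron genes, 20 kept direction and call in all 26 alternatives. Among the 30, changed signs were confined to uncalled values and to fits without a library: Hamp in the diet contrast (-0.4 to 0.05) and Slc40a1 in the diet contrast (-0.06 to 0.12). Cp for HFHF Flcn gRNA against chow, also uncalled, ran from -0.08 to 0.0. It was counted as changed because it reached 0 after rounding, not because its sign turned. Flcn in the diet contrast ran from -0.16 to 0.11, with the changed sign without chow control replicate 1. Of 63 fold changes of list genes, 5 lost the call in some alternative (Fdxr in 17, Cpox and Smad6 in 10, Urod and Alad in 2 of 26), and none changed sign. Of the 10 iron genes Bmp6, at 17 to 47 counts per library, is the one most limited by depth. Some list and marker genes were lower in HFHF control libraries, among them Cd163 (from 0.107 CPM), Marco (from 0.16 CPM) and Timd4 (from 0.32 CPM).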
